A study of Mus musculus with 6 samples.

Results

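The genes described here are nuclear-encoded genes of the mitochondrial respiratory chain and of ATP synthase. They were chosen by symbol alone, as the rows of the count table that begin with Ndufa, Ndufb, Ndufc, Ndufs, Ndufv, Uqcr, Cox4 to Cox8 or Atp5, or that read Sdha, Sdhb, Sdhc or Sdhd. Of the 106 rows that matched, 9 pseudogene rows ending in -ps and 8 Ndufaf assembly factors were left out, and the remaining 89 of 54429 rows are the members. By prefix, 41 belong to complex I, 4 to complex II, 8 to complex III, 19 to complex IV and 17 to complex V. The prefixes do not take in Cyc1, the cytochrome c1 of complex III, so the complex III values are without it. The experiment was ribodepleted RNA-seq of primary aortic endothelial cells (EC) from adult C57BL/6 WT mice, purchased as a primary culture. EC of one group received a lentiviral vector that overexpresses Meis1 (Meis1-OE EC), and EC of the other received a YFP vector (YFP-CTRL EC), with 3 libraries in each group from transductions described by the study as independent. Every library in both groups came from cells sorted 72 h after transduction for YFP, CD31 and VEC, re-plated and grown to confluency, so the measured cells are survivors of a sort and an expansion in culture. Neither the labels nor the methods give the number of animals behind the culture, and p-values measure the spread between these libraries. Libraries are called by the letters A, B and C that the columns carry.

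Complex I takes electrons from NADH and complex II takes them from succinate, complex III passes them from ubiquinol to cytochrome c, and complex IV hands them to oxygen. Complexes I, III and IV pump protons across the inner mitochondrial membrane, and complex V, the ATP synthase, lets them flow back to make ATP. Complexes I, III, IV and V also hold subunits made from mitochondrial DNA, so their assembly needs both genomes, while complex II is wholly nuclear-encoded. EC are known for making most of their ATP by glycolysis, with the respiratory chain serving other needs such as the supply of aspartate and nucleotides during growth. Complex IV is also the part of the chain with the most tissue-specific subunits. Several of its genes come in pairs, in which one copy is used in most tissues and the other mainly in heart, skeletal muscle, brown fat or lung.

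The only member called at an adjusted p under 0.05 in edgeR, Cox8b, is of such a pair. It makes 1.27% of the tested members called higher in Meis1-OE EC, beside 4.14% of all genes. Cox8a and Cox8b encode the smallest subunit of complex IV. Cox8a is the form of most tissues, and Cox8b is the form known from heart, skeletal muscle and brown fat of mice. Cox8b occupies chr7:140898942-140900446 on the minus strand of GRCm38, the RefSeq assembly that corresponds to mm10, the build named in the submitters' processing notes. The 250 bases before the RefSeq start of each gene are shown to set the promoters of a called gene and its uncalled partner side by side. The Cox8b stretch is chr7:140900447-140900696 and the Cox8a stretch is chr19:7217617-7217866, both minus strand, written 5′ to 3′ from RefSeq GRCm38.p6. Capitals mark matches to any of 6 motifs searched on both strands, namely CCGGAAG of ETS factors such as GABPA, GCGCATGC of NRF1, AAGATGGC of YY1, TGACAG, the core of TALE homeodomain factors to which Meis1 belongs, the SP1 box GGGCGG and the E-box CACGTG.
Cox8b: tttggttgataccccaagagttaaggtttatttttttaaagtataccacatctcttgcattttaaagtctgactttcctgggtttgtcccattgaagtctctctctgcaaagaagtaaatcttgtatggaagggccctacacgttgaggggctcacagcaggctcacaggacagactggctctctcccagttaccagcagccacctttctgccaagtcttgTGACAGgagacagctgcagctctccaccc
Cox8a: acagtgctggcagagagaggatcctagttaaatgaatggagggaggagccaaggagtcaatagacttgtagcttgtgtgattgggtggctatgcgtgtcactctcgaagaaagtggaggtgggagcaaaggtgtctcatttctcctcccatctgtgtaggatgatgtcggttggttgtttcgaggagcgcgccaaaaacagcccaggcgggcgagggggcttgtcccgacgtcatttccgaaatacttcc
The Cox8b stretch holds a single match, TGACAG at 29 bases before the start. The Cox8a stretch holds no complete match, and its window of 300 bases, which runs 50 bases past the start, holds 2 matches to the ETS motif that reach or pass the start. TGACAG is short and common, since it stands in 22.2% of the 72 promoter windows available for 67 members and in 19.2% of all 32851 windows of the same length. The motifs of the factors known to drive respiratory genes were in larger shares of the member windows, with 22.2% against 8.86% for CCGGAAG, 13.9% against 2.71% for GCGCATGC and 12.5% against 2.75% for AAGATGGC. GGGCGG was in 38.9% against 35.7% and CACGTG in 8.33% against 7.15%. CCGGAAG ends in the letters AAG with which AAGATGGC begins, so matches to these motifs can overlap. The motifs were chosen after the values were seen, and a match is a description of letters only.

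Total counts ran from 34176592 to 47956569 per library, and 16065 genes passed edgeR's filter on low counts, among them 79 of the 89 members. A single gene, Gm26917, took 8.06 to 14.1% of each library. Meis1 itself had 135325, 157828 and 149221 counts in the Meis1-OE libraries against 39, 58 and 85 in the controls, the direction of the labels. The 10 endothelial markers Pecam1, Cdh5, Kdr, Tek, Eng, Erg, Vwf, Emcn, Cldn5 and Esam were detected in every library. In edgeR Vwf (log2 fold change 3.12) and Cldn5 (1.81) were higher in Meis1-OE EC and Tek (-0.78) was lower. The remaining markers were not called in that fit. Of these, Kdr had -1.23 (adjusted p = 0.0504) and Cdh5, which encodes the VEC of the sort, had -0.70 (adjusted p = 0.0535). Of 10 macrophage markers C1qa, C1qb, C1qc, Tyrobp and Adgre1 were at 0 in all 6 libraries, while Cd68 had 2198 to 5703 counts and carried most of the list's sum of 69.8 to 106 CPM (counts per 1000000, TMM-scaled) in Meis1-OE and 65.1 to 140 CPM in YFP-CTRL EC. None of the 3 tested macrophage markers was called, and 2 were higher at an unadjusted p under 0.05, Csf1r with 15, 26 and 18 counts against 1, 4 and 12 and Lyz2 with 6, 40 and 37 against 8, 8 and 7. Of 10 fibroblast and smooth muscle markers the collagens Col1a1, Col1a2 and Col3a1 had at most 13 counts, but the list's sum was 14.1 ± 1.30 CPM against 40.9 ± 9.58 CPM in the controls (SD, n = 3), with no overlap. Pdgfra made most of it in every library but YFP-CTRL C, with 543, 535 and 544 counts against 1130, 2005 and 707 (-1.47, adjusted p = 0.0598 from edgeR), and Acta2 had 152, 64 and 46 against 7, 89 and 902. The part of these markers in the members' values was not tested. The YFP-CTRL libraries differed among themselves. The mean log2 CPM of 15 proliferation genes was 4.41 in YFP-CTRL A, 5.19 in B and 6.35 in C, against 6.40 to 6.45 in the Meis1-OE libraries, so YFP-CTRL C stood beside the Meis1-OE libraries on this score. A fit on 6 libraries therefore carries a wide control spread, and values without YFP-CTRL C are given where they change a call.

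Between Meis1-OE and YFP-CTRL EC, 1 of the 79 tested members was higher and 0 were lower at an adjusted p under 0.05 (edgeR quasi-likelihood test, two-sided, Benjamini-Hochberg adjustment over the 16065 genes). The called gene was Cox8b, which passed the filter on low counts only through the Meis1-OE libraries. Of all genes tested, 4.14% were higher and 2.73% were lower by the same rule. At an unadjusted p under 0.05, 3 members were higher (3.80%), namely Cox5a, Cox8b and Ndufa8, and 8 were lower (10.1%), namely Atp5b, Atp5d, Atp5f1, Cox4i1, Cox5b, Ndufa4, Uqcr10 and Uqcrq. The shares of all genes were 12.8% and 13.4%. DESeq2, the program the study used, called Cox8b higher and Atp5b lower among 82 members, with 6.21% and 6.14% of all genes called.

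The members' log2 fold changes, taken as Meis1-OE over YFP-CTRL, had a median of -0.02 beside 0.01 for all genes tested, and 37 were above 0 and 42 below. Apart from Cox8b at 6.01 they ran from -0.79 for Uqcrq to 0.68 for Ndufa8, and 74 of the 79 lay within 0.4 of 0. Their standard errors, Cox8b aside, ran from 0.094 to 0.282 with a median of 0.127. The 95% interval of the fold change lay inside 1.5-fold in both directions for 64 members and inside 2-fold for 75. The 4 whose interval reached past 2-fold were Cox7a2, Cox8b, Ndufa8 and Uqcrq. In bulk RNA a lower level can mean fewer cells of a kind or less RNA per cell, and these cannot be told apart.

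**Figure D1:**
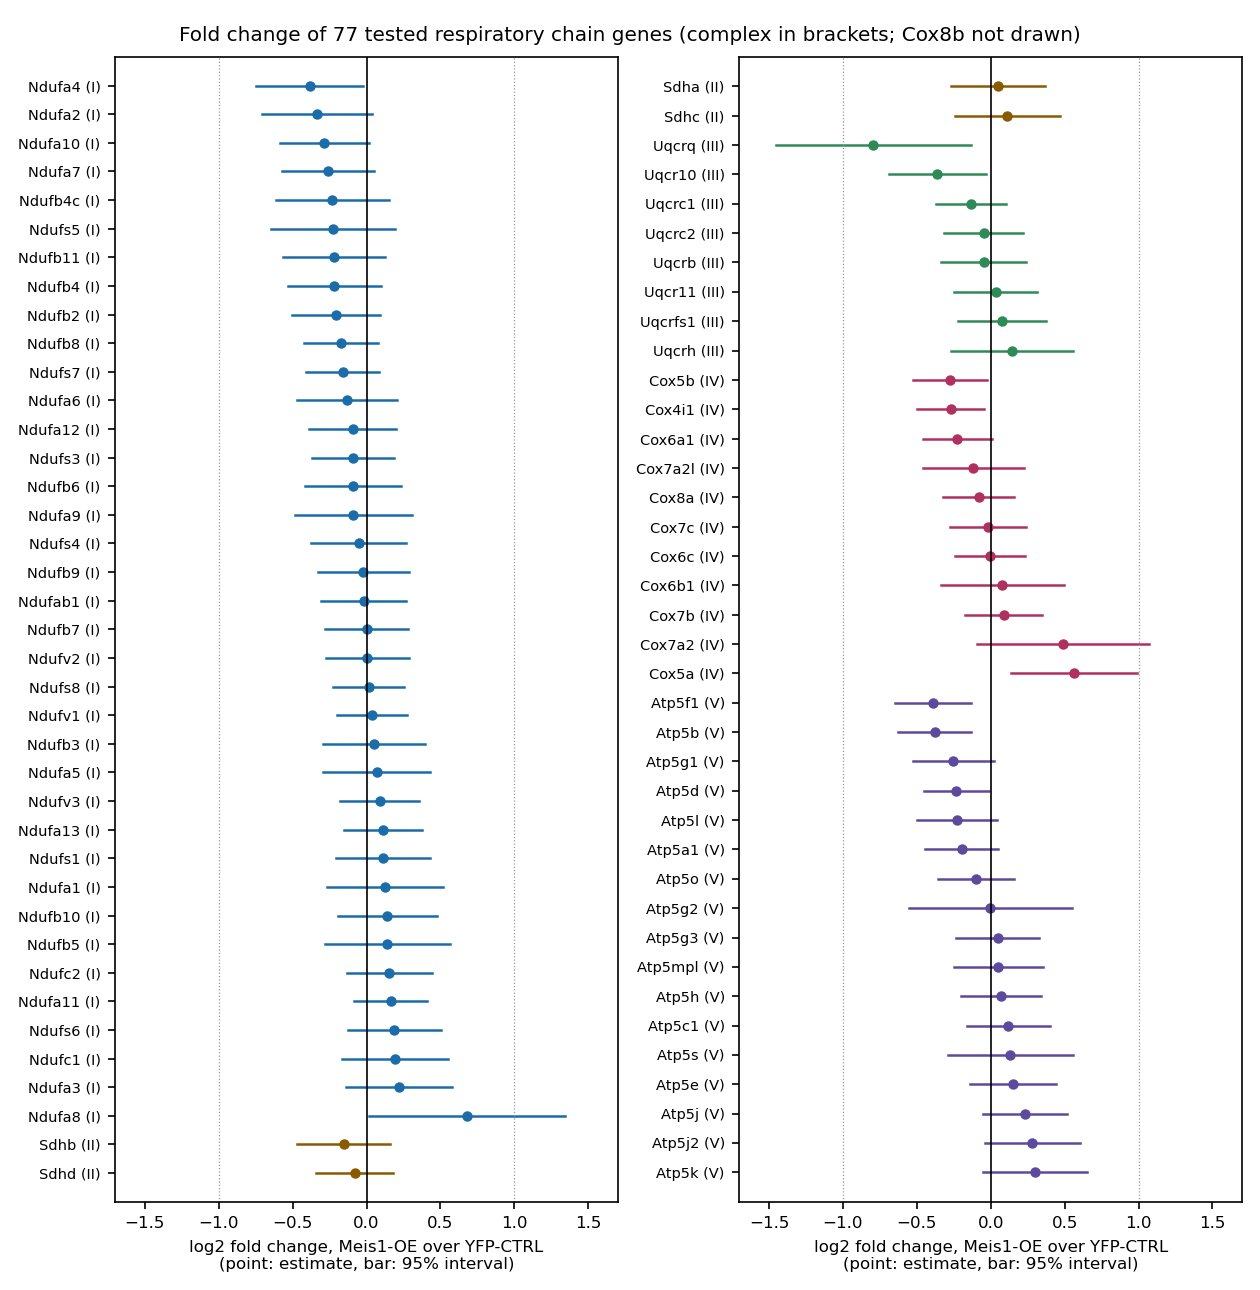
Log2 fold change of Meis1-OE over YFP-CTRL EC (x axis) for 77 of the 79 tested members ordered by complex and value (y axis), with points for the edgeR estimate on 3 libraries per group and bars for the 95% interval. Apart from Cox8b, which at 6.01 is not drawn, the estimates run from -0.79 for Uqcrq to 0.68 for Ndufa8, and the dotted lines mark 2-fold.

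By complex, the median log2 fold change was -0.02 for the 38 tested genes of complex I, -0.02 for the 4 of complex II, -0.05 for the 8 of complex III, -0.01 for the 12 of complex IV and 0.05 for the 17 of complex V. The groups of libraries did not overlap for 7 members that were higher in Meis1-OE EC (8.86%) and for 13 that were lower (16.5%), while 17.2% and 15.9% of all genes were separated in the same way. The 7 were Atp5k, Cox5a, Cox8b, Ndufa11, Ndufa3, Ndufa8 and Ndufs6. The 13 were Atp5a1, Atp5b, Atp5d, Atp5f1, Atp5g1 and Atp5l of complex V, Cox4i1, Cox5b and Cox6a1 of complex IV, Ndufa4, Ndufb8 and Ndufs7 by complex I symbol, and Uqcr10 of complex III.

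Summed over its genes, complex V had 1815, 1829 and 1915 CPM in Meis1-OE A, B and C and 2203, 2195 and 2115 CPM in YFP-CTRL A, B and C. These sums, 1853 ± 54.2 and 2171 ± 49.0 (SD, n = 3), did not overlap between the groups and differed by -14.7%. Atp5b alone made 749 ± 25.2 CPM of the first and 975 ± 66.4 CPM of the second, so most of the difference came from this gene. The median log2 fold change of complex V was 0.05, with 9 genes above 0 and 8 below. The sums of complex III, 418 ± 19.8 against 492 ± 44.5 CPM, also did not overlap. The nearest libraries were Meis1-OE C at 436 CPM and YFP-CTRL C at 441 CPM. Uqcrq alone made 73.5 ± 3.43 CPM of the first sum and 127 ± 48.7 CPM of the second, so most of the difference came from this gene. The sums of complex I were 1211 ± 53.0 and 1243 ± 52.3 CPM and those of complex II 288 ± 19.3 and 281 ± 36.6 CPM. Those of complex IV were 756 ± 35.0 and 788 ± 43.5 CPM. The groups overlapped for complexes I, II and IV. The sums depend on the scaling. Scaled by library totals alone, which moves the median of all genes to 0.15 on the log2 scale, complex V differed by -5.93% with no overlap and complex III by -6.46% with overlap. Complexes I and IV turned from -2.55% and -4.03% to 7.49% and 5.86%, complex II went from 2.45% to 13.2%, and the sums of these complexes no longer overlapped. All members together went from -9.03% to 0.313%. On library totals without Gm26917 and Meis1, complexes I, II and IV differed by 3.52%, 8.93% and 1.93%, each with overlap. In that scaling complex III differed by -9.82% with overlap and complex V by -9.37% with no overlap. All members together then differed by -3.37% with no overlap.

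**Figure D2:**
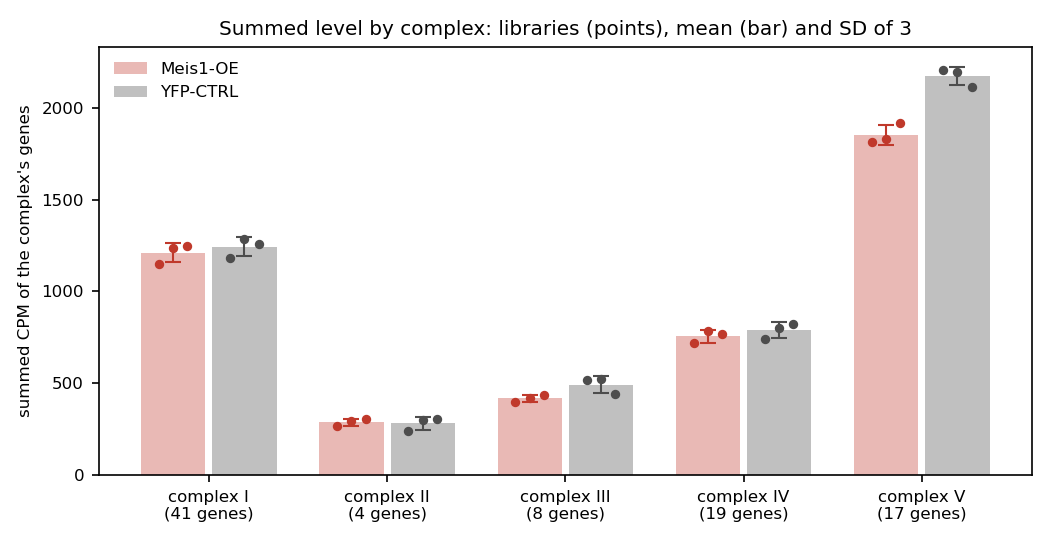
Summed CPM (TMM-scaled, y axis from 0) of the genes of each complex (x axis), with points for the 3 libraries of a group, bars for their mean and whiskers for the SD. The groups are apart for complex V, at 1815 to 1915 CPM in Meis1-OE EC and 2115 to 2203 CPM in YFP-CTRL EC, and overlap for complexes I, II and IV. Most of the difference in complex V comes from Atp5b.

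Cox8b had 76, 209 and 247 counts in Meis1-OE A, B and C, while YFP-CTRL A, B and C had 0, 1 and 6. Its level was 1.66, 4.60 and 5.33 CPM against 0, 0.0245 and 0.132 CPM. All 3 Meis1-OE libraries were above all 3 YFP-CTRL libraries, and Meis1-OE A was the lowest of its group. On the log2 scale edgeR fitted a change of 6.01 with a standard error of 0.80 (adjusted p = 0.00966). The fitted value depends on the program's prior for a group near 0, and the ratio of the summed counts, 532 against 7 after scaling, was 66.5 with an exact 95% counting interval of 32.0 to 166. This interval covers counting error only. The call was lost without Meis1-OE B (adjusted p = 0.0548), without Meis1-OE C (0.0502) or without YFP-CTRL B (0.0601), where the fitted log2 fold change stayed between 5.66 and 5.88. Cox8b passed edgeR's filter only through the Meis1-OE libraries, where it was high, so its call is not independent of that selection. A filter of at least 10 counts in every library removed the gene from the test. When the proliferation score was added to the edgeR fit, Cox8b had 4.60 (adjusted p = 0.0495). In that fit Ndufa4 was lower and Cox8b the only member called higher, beside 1.99% of all genes higher and 1.59% lower. The score was 6.40 to 6.45 in the Meis1-OE libraries and 4.41, 5.19 and 6.35 in YFP-CTRL A, B and C. The slope of that fit thus rested on the YFP-CTRL libraries, and Meis1-OE EC were compared chiefly with YFP-CTRL C. Values from that fit cannot separate proliferation from this library.

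Even in Meis1-OE EC, Cox8b was a small part of the Cox8 transcripts. It made 1.07% of the reads of Cox8a, Cox8b and Cox8c in Meis1-OE A (95% Wilson interval 0.860 to 1.34%), 2.66% in B (2.32 to 3.04%) and 3.13% in C (2.77 to 3.54%). In YFP-CTRL A it was at 0 (0 to 0.0697%), where a limit of 3 counts allows a share of up to 0.0545%, in B it was 0.0144% (0.00254 to 0.0814%) and in C 0.0724% (0.0332 to 0.158%). The intervals of the Meis1-OE libraries lay above those of the YFP-CTRL libraries, and that of Meis1-OE A lay below those of B and C. Cox8a was at 153, 169 and 165 CPM in Meis1-OE EC and 162, 170 and 182 CPM in YFP-CTRL EC, a log2 fold change of -0.08 (95% interval -0.32 to 0.16) that turns to 0.06 on library totals. Cox8c, the testis form, had no count in any library.

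**Figure D3:**
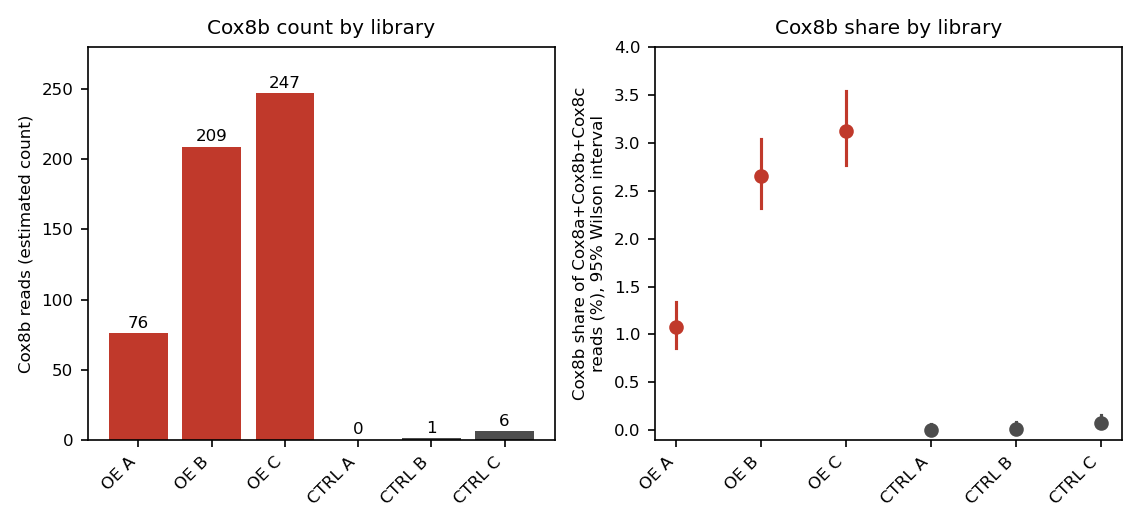
Cox8b reads (left, estimated counts from 0) and Cox8b as a percentage of Cox8a, Cox8b and Cox8c reads (right, points with 95% Wilson intervals) in each Meis1-OE and YFP-CTRL library. The Meis1-OE libraries hold 76, 209 and 247 reads and the YFP-CTRL libraries 0, 1 and 6, and the share stays at or under 3.13%.

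The genes next to Cox8b did not pass the test. Psmd13, a proteasome subunit that ends just beside it, had a log2 fold change of 0.26 (adjusted p = 0.339), and Pgghg had 0.59 (adjusted p = 0.121), both from edgeR. Nlrp6 had 3, 11 and 12 counts against 2, 0 and 2, and BC024386 had 5, 0 and 0 against 7, 3 and 3, too few to be tested.
Marker lists of the tissues that use Cox8b, added after its values were seen, were read beside it. Of 7 brown adipocyte genes, Ucp1, Cidea, Elovl3, Adipoq, Plin1 and Cidec had at most 3 counts in any library. Dio2, the enzyme that activates thyroid hormone and a marker of active brown fat, had 21, 71 and 99 counts against 0, 1 and 0 (log2 fold change 6.95, standard error 1.01, adjusted p = 0.0117 from edgeR). It was the only gene of this list that passed the filter, and only through the Meis1-OE libraries, so its call follows from that selection. Of 13 striated muscle genes, 3 passed the filter and Tnnt2, cardiac troponin T, was higher, with 180, 272 and 224 counts against 70, 52 and 119 (log2 fold change 1.31, adjusted p = 0.0489). Myh6, Myh7, Actn2, Myl2, Ckm, Myh4, Tnnt3 and Pln had at most 2 counts in any library. Tnni3, cardiac troponin I, had 15, 15 and 17 counts against 3, 0 and 13 (1.38, adjusted p = 0.313), and Acta1, skeletal muscle actin, had 22, 6 and 9 against 10, 15 and 140 (-2.22, adjusted p = 0.206). The summed level of the muscle list ran from 5.03 to 6.65 CPM in Meis1-OE EC and from 1.76 to 6.25 CPM in YFP-CTRL EC.

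The other tissue-specific copies of complex IV stayed at a handful of reads. Cox7a1, the heart and skeletal muscle form of subunit 7a, had 9, 9 and 8 counts in Meis1-OE EC and 2, 8 and 2 in YFP-CTRL EC. Cox6a2, the muscle form of subunit 6a, had 0, 4 and 4 counts against 13, 32 and 1, with YFP-CTRL A and B high and YFP-CTRL C among the Meis1-OE libraries. Cox6b2 had 4, 1 and 2 counts against 0, 0 and 2, and Cox4i2, the lung and oxygen-responsive form of subunit 4, had 0, 1 and 0 against 0, 1 and 0. Ndufa4l2, a hypoxia-induced relative of Ndufa4, made at most 0.643% of the reads of the pair in any library. Cox7b2 had a single count in all, and Cox6c2 and Ndufs6b had none. The members below the filter were not tested in the fit on 6 libraries.

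Among the common subunits of complex IV, Cox5a and Cox7a2 had the largest positive values. Cox5a, a matrix-side subunit, was at 47.1, 52.5 and 56.0 CPM in Meis1-OE EC and at 27.6, 33.8 and 43.9 CPM in YFP-CTRL EC, with no overlap (log2 fold change 0.56, standard error 0.18, adjusted p = 0.109 from edgeR). It passed on library totals at 0.71 (adjusted p = 0.0494), where the median of all genes moved from 0.01 to 0.15. Cox7a2, the common form of subunit 7a, was at 25.6, 27.7 and 27.6 CPM against 13.4, 17.1 and 27.2 CPM (0.49, standard error 0.25, adjusted p = 0.260). YFP-CTRL C thus lay within the Meis1-OE libraries, and the same order appears in the share of Cox7a2 among Cox7a1, Cox7a2 and Cox7a2l reads, which was 35.4 to 37.4% in Meis1-OE EC and 22.5%, 21.8% and 36.5% in YFP-CTRL A, B and C. In the fit that included the proliferation score, Cox7a2 had -0.03. It overlaps Tmem30a, which had 0.17 (adjusted p = 0.468).
Cox4i1 and Cox5b had the most negative values of the complex. Cox4i1, the common form of subunit 4, was at 106, 110 and 112 CPM against 126, 137 and 133 CPM (-0.27, standard error 0.096, adjusted p = 0.133), and Cox5b, a zinc-binding subunit, at 52.5, 55.5 and 56.4 against 68.4, 69.6 and 60.8 CPM (-0.27, adjusted p = 0.162). Neither overlapped between the groups. Cox6a1 had -0.23, Cox6b1 0.08 and Cox7a2l -0.12, with adjusted p of 0.201, 0.816 and 0.654 from edgeR. Counts of Cox7a2l were not whole numbers in any library, so its level and the shares of Cox7a2 given above are uncertain to that extent.

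In complex III, Uqcrq, a small subunit that lies near the ubiquinone site, was at 69.5, 75.1 and 75.8 CPM in Meis1-OE EC and at 163, 147 and 71.9 CPM in YFP-CTRL EC. This gave -0.79 on the log2 scale (standard error 0.28, edgeR adjusted p = 0.132). YFP-CTRL A and B were far above the rest, and YFP-CTRL C lay with the Meis1-OE libraries. With YFP-CTRL C left out the value was -1.09 (adjusted p = 0.000679), and in the fit that included the proliferation score -0.02 (adjusted p = 0.970). The first of these follows in part from leaving out the control nearest to the Meis1-OE libraries. With YFP-CTRL A left out the value was -0.60 (adjusted p = 0.261 from edgeR). Uqcrq overlaps Gdf9 in the RefSeq annotation, which had 13, 12 and 12 counts against 42, 27 and 16. No strand setting is given for the counts, so reads of overlapping genes cannot be told apart. Uqcrc1, a core subunit, was at 111, 106 and 120 CPM against 119, 123 and 128 CPM, and Uqcrh, the hinge protein, had the highest value at 0.14 (adjusted p = 0.642). Uqcr10, a small subunit named after its values were seen, was at 36.3, 38.0 and 38.0 CPM against 51.8, 53.1 and 39.5 CPM (-0.36, adjusted p = 0.158), again with YFP-CTRL C nearest to the Meis1-OE libraries.

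**Figure D4:**
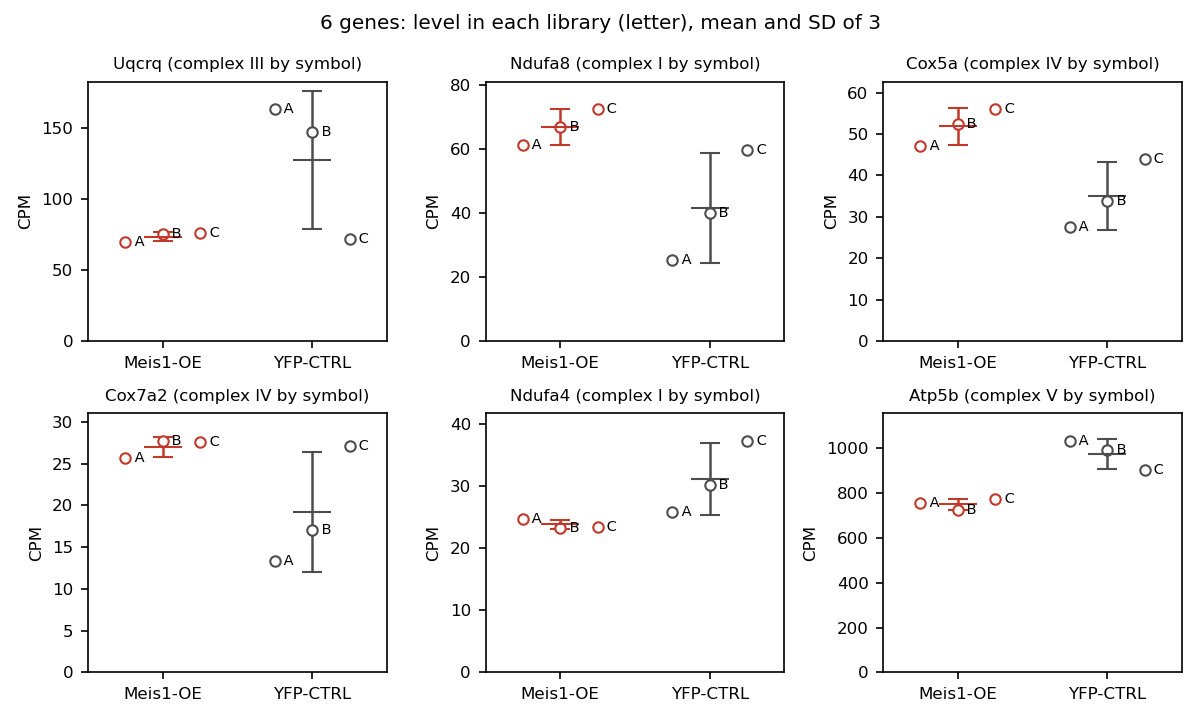
CPM (TMM-scaled, y axis from 0) of Uqcrq, Ndufa8, Cox5a, Cox7a2, Ndufa4 and Atp5b in each library, marked by its letter, with the mean and SD of the 3 libraries of each group. YFP-CTRL C lies within the range of the Meis1-OE libraries for Uqcrq and Cox7a2, and is the farthest control from them for Ndufa4, at 37.3 CPM.

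In complex I, no tested gene passed in either direction. Ndufa8, an accessory subunit on the intermembrane side, had the highest value, with 61.1, 66.7 and 72.4 CPM in Meis1-OE EC and 25.3, 40.0 and 59.5 CPM in YFP-CTRL EC (0.68, standard error 0.28, adjusted p = 0.180 from edgeR). The groups did not overlap, and YFP-CTRL C was the nearest control. Fitted beside the proliferation score it had 0.07. Ndufa4, which carries a complex I symbol and is now known as a subunit of complex IV, had the lowest value, with 24.8, 23.3 and 23.5 CPM against 25.8, 30.3 and 37.3 CPM (-0.39, standard error 0.15, adjusted p = 0.169). Here YFP-CTRL A was the nearest control and C the farthest, and fitted beside the proliferation score the value was -0.67 (adjusted p = 0.0299). In all, 37 of the 38 intervals of complex I lay inside 2-fold.

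Complex II showed no member with groups apart. Sdha, the flavoprotein that oxidises succinate, was at 96.5, 111 and 109 CPM against 85.7, 112 and 109 CPM, and Sdhb, the iron-sulfur subunit, at 30.2, 32.1 and 33.6 against 31.4, 41.1 and 34.3 CPM. The membrane anchors were Sdhc, at 109, 117 and 126 against 86.6, 116 and 122 CPM, and Sdhd, at 31.0 to 34.5 CPM against 35.2, 33.3 and 36.8 CPM. The log2 fold changes were 0.05, -0.16, 0.11 and -0.08 in that order, with adjusted p from 0.504 to 0.855 in edgeR. All 4 intervals lay inside 1.5-fold. Counts of Sdhc were not whole numbers in 5 of the 6 libraries, so its level is uncertain to that extent.

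In complex V, 9 members had positive and 8 negative values, and none passed the threshold. Atp5b, the catalytic β subunit and the highest of all members per kilobase of transcript, at 391 CPM per kb in Meis1-OE EC and 509 in YFP-CTRL EC, was at 754, 722 and 772 CPM against 1032, 989 and 902 CPM. The estimate on the log2 scale was -0.38 (standard error 0.10, edgeR adjusted p = 0.0745), the groups did not overlap, and DESeq2 called it (-0.39, adjusted p = 0.0333). It was named after its values were seen. Atp5f1, the b subunit of the outer stalk, had the lowest value of the complex, with 55.2, 60.1 and 55.4 CPM against 74.8, 79.9 and 69.0 CPM (-0.39, adjusted p = 0.0756). Atp5a1, the α subunit, had -0.20 and Atp5d, the δ subunit of the central stalk, -0.23, while Atp5c1, the γ subunit that turns inside them, had 0.12. Atp5k, the e subunit, had the highest value, with 5.69, 6.08 and 5.74 CPM against 4.95, 4.83 and 4.47 CPM (0.30, adjusted p = 0.257).
Atp5g1, Atp5g2 and Atp5g3 encode the same mature c subunit of the rotor ring. Atp5g1 made 50.8 to 52.2% of their reads in Meis1-OE EC and 62.8%, 56.3% and 50.6% in YFP-CTRL A, B and C, and Atp5g3 made 40.3 to 42.3% against 32.9%, 36.0% and 41.4%. The least used, Atp5g2, made 6.85 to 7.46% against 4.23% in YFP-CTRL A and 7.68% in B, with C highest. The log2 fold changes were -0.25, 0.05 and 0.00 for Atp5g1, Atp5g3 and Atp5g2, with adjusted p of 0.218, 0.841 and 0.997. Counts of Atp5g1 and Atp5g2 were not whole numbers in any library, as happens where a counting program divides reads among near copies, and their levels are uncertain to that extent. The same holds for Atp5b and Atp5l.

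**Figure D5:**
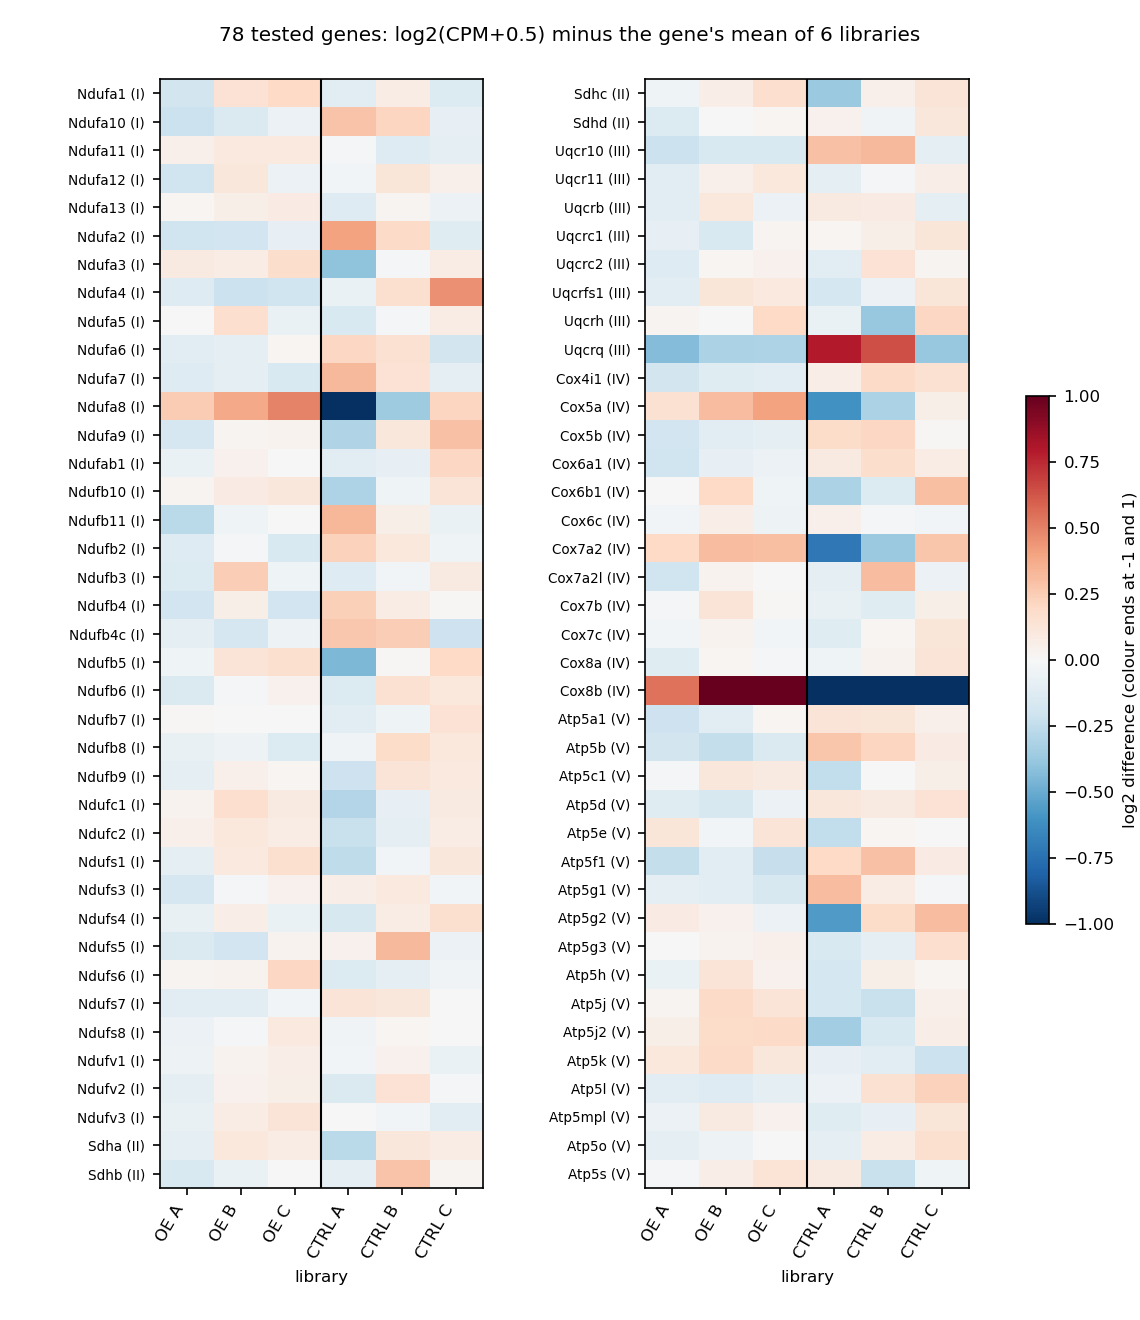
Log2(CPM + 0.5) of 78 of the 79 tested members in each library, as the difference from the member's mean over the 6 libraries, with rows grouped by complex and colours ending at -1 and 1. Cox8b separates the groups, Uqcrq, Ndufa8, Cox5a and Cox7a2 spread more widely among the YFP-CTRL than among the Meis1-OE libraries, and most rows stay pale.

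Much of what could be seen depended on the control libraries. The SD of log2(CPM + 0.5) had a median over members of 0.0762 among the Meis1-OE libraries and 0.148 among the YFP-CTRL libraries, and it was larger in YFP-CTRL for 60 of 79 members (75.9%, against 77.9% of all genes). YFP-CTRL C was nearer to the Meis1-OE mean than to the mean of YFP-CTRL A and B for 50 of 79 (63.3%, against 60.9% of all genes). This library was singled out for that nearness, so the calls made without it follow in part from the choice. Leaving out YFP-CTRL A gave 1 member higher and 0 lower, and leaving out YFP-CTRL B gave 0 and 0. Without YFP-CTRL C, 6 of 80 members were higher and 11 lower, where 16.5% and 15.2% of all genes were called. The 6 were Atp5j, Atp5j2, Cox5a, Cox7a2, Cox8b and Ndufa8, with log2 fold changes of 0.31, 0.38, 0.74, 0.81, 7.87 and 1.01. Those lower were Uqcrq at -1.09, Uqcr10 at -0.50, Ndufa2 at -0.48, Atp5f1 at -0.46, Atp5b at -0.44 and Ndufa10 at -0.40. Also lower were Ndufb4c at -0.38, Ndufa7 at -0.37, Cox5b at -0.34, Atp5g1 at -0.33 and, among the low counts, Cox6a2 at -3.29. Counts of Ndufb4c, like those of Ndufb4, were not whole in any library, so its level is uncertain to that extent. Cox6a2, the added member, failed the filter on 6 libraries. It passed here only through YFP-CTRL A and B, where it was high (13 and 32 counts, against 0, 4 and 4 in Meis1-OE EC). Its call follows from that selection. The proliferation genes moved with YFP-CTRL C as well, and their part in these calls was not tested beyond the fit that included their score. That fit cannot separate the score from this library.

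The genes that build, feed and regulate the chain were read in the same fit. Of 47 assembly factors, 0 were higher and 1 was lower (2.13%, beside 2.73% of all genes). This was Ndufaf4, needed to assemble complex I, with 560, 541 and 531 counts against 730, 810 and 751 (log2 fold change -0.70, standard error 0.14, adjusted p = 0.0326 from edgeR). None of 15 genes for cytochrome c, cytochrome c1 and ubiquinone synthesis passed, and neither did any of 6 carriers and pores of the ADP/ATP, phosphate and VDAC families. Cyc1, among the 15, had -0.37 (adjusted p = 0.0930 from edgeR), beside a median of 0.07 for that list. Of 16 genes of the TCA cycle and its entry, 1 was lower (6.25%), Dlst, of the 2-oxoglutarate dehydrogenase complex (-0.53, adjusted p = 0.0490 from edgeR). None of the 13 mRNAs of mitochondrial DNA passed, their median was 0.23 and their values ran from -0.01 for mt-Nd3 to 0.41 for mt-Nd6. Together they made 22598, 26517 and 23817 CPM in Meis1-OE EC and 20023, 20260 and 22667 CPM in YFP-CTRL EC.
Of 11 tested regulators of mitochondrial biogenesis none passed, with a median of -0.38. At an unadjusted p under 0.05 in edgeR, 5 were lower (45.5%) and 1 higher (9.09%), beside 13.4% and 12.8% of all genes. Of the factors whose motifs were searched, Nrf1 and Gabpa had -0.03 and 0.02 and Yy1 had -0.51 (adjusted p = 0.0650). Pprc1, a relative of PGC-1α, had -0.48 (adjusted p = 0.0526). Tfb2m and Polrmt, of the mitochondrial transcription machinery, had -0.63 and -0.58, Ppargc1b had -0.77, and Tfb1m had 0.51. Ppargc1a, which encodes PGC-1α, had 9, 15 and 5 counts against 0, 0 and 0 and fell under the filter. Mitochondrial ribosomal protein genes gave 0 higher and 0 lower of 78 with a median of -0.11, and cytosolic ribosomal protein genes gave 0 higher and 13 lower of 77 with a median of -0.32. At an unadjusted p under 0.05, 17 mitochondrial (21.8%) and 47 cytosolic (61.0%) ribosomal protein genes were lower, beside 13.4% of all genes. The 13 called lower were 16.9% of the cytosolic list, beside 2.73% of all genes.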

How the data were processed

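Ribodepleted RNA-seq of 3 Meis1-OE and 3 YFP-CTRL cultures of mouse aortic EC was analysed. The authors deposited estimated counts per gene without normalization. The submitters' notes name build mm10, and the aligner, counting tool, annotation and strand setting are not given in the sources used here. Counts were rounded to whole numbers (20 of the 79 tested members, 25.3%, and 32.6% of all tested genes had a count more than 0.01 from a whole number). Of 54429 rows 27948 had a count. The 16065 genes kept by filterByExpr were tested in R 4.3.3 with edgeR 4.0.16 (TMM, quasi-likelihood, two-sided, Benjamini-Hochberg, threshold 0.05). Standard errors were derived from the F statistic. CPM are TMM-scaled, and levels per kb used the shortest GENCODE M1 transcript with the longest coding part (77 tested members). Exact permutation of 3 against 3 cannot go below 0.1 and was not used. The edgeR step was tested on simulated data of 16065 genes. Intervals and limits of 0 (3 counts) cover counting error only.

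Named genes were every member past the threshold, the highest and lowest of each complex at 5 CPM or more, complex II, the c subunits and the paralogue sets. Atp5b, Uqcr10 and other members outside this rule were named after their values were seen. Members and lists were chosen with earlier results of these data known, and the brown adipocyte and striated muscle lists and the motifs after the values were seen. Promoters and coordinates came from RefSeq GRCm38.p6, with coordinates for 87 members, of which 28 overlap another gene. Alternatives were other scalings, filters, a robust fit, DESeq2 1.42.0, a proliferation covariate, a replicate block and each library left out in turn. Figures were drawn with matplotlib 3.10.9. 1 member is not reported here by name and is not drawn, and it is counted in the totals.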

Additional observations from a re-analysis of the deposited data

How the results depend on the processing

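Cox8b kept its sign in each of the 14 alternative fits that tested it, with log2 fold changes from 4.60 to 7.87, and lost its call in 3 of them, when Meis1-OE B, Meis1-OE C or YFP-CTRL B was left out. Leaving out each library in turn gave 0 to 6 members higher and 0 to 11 lower, with both highest counts coming without YFP-CTRL C, and medians of -0.08 to 0.01. Beside 1 higher and 0 lower, library totals gave 2 members higher, where 1048 of all 16065 genes were higher. At least 10 counts in every library gave 0 higher because Cox8b was not tested, beside 473 of 14366 genes. The proliferation covariate (Ndufa4) and DESeq2 (Atp5b) each gave 1 lower, beside 1.59% and 6.14% of all genes. A threshold of 0.1 gave 2 lower, Atp5b and Atp5f1, without a count of all genes at that threshold. The members' median of -0.02 moved to 0.13 on library totals and to 0.070 on totals without Gm26917 and Meis1, where the median of all genes moved to 0.15 and 0.097. All genes tested gave 115 to 2717 higher and 16 to 2498 lower when single libraries were left out, again highest without YFP-CTRL C. Some named members changed sign, Cox7a2 from 0.49. On library totals these were Atp5g2 (0.15), Cox7a2l (0.027), Cox8a (0.061), Sdhd (0.057) and Uqcrc1 (0.0083), and on totals without Gm26917 and Meis1 Atp5g2 (0.093), Cox8a (0.0061) and Sdhd (0.0031). With the proliferation covariate they were Atp5c1 (-0.042), Atp5g3 (-0.14), Cox6b1 (-0.25), Cox7a2 (-0.034), Ndufb4c (0.075), Sdha (-0.12), Sdhc (-0.14) and Uqcrh (-0.045), and with at least 10 counts Atp5g2 (0.0081). Leaving out single libraries spread Atp5g2 from -0.24 to 0.15, Atp5g3 from -0.027 to 0.14, Cox6b1 from -0.057 to 0.27, Cox7a2l from -0.21 to 0.031, Sdha from -0.077 to 0.13 and Sdhc from -0.039 to 0.20. None was called in a fit that changed its sign. The cause was not tested.

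The labels number the replicates and the columns carry letters, so the samples share only a letter. Deviations from the group means correlated at 0.267 for A, 0.120 for B and 0.0697 for C. A fit with the letter as a replicate block called 1 member higher and 0 lower, beside 544 and 189 of 16065 genes. The members' median in it was -0.01, with Cox8b at 6.15 and Atp5g2 at 0.045. Shares per kb of transcript put Cox8b at 3.40% in place of 2.29% of Cox8 in Meis1-OE EC. Depth limits the 10 members below the filter, which had at most 32 counts.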

Other observations

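A row that the selection left out by its name, Ndufb1-ps, had 588, 576 and 555 counts in Meis1-OE A, B and C and 395, 486 and 561 counts in YFP-CTRL A, B and C. Its level of 11.6 to 12.9 CPM over the 6 libraries was in the range of tested complex I members such as Ndufb6, and its log2 fold change was 0.06 (adjusted p = 0.775 from edgeR). The pseudogene rows Atp5l2-ps and Ndufab1-ps had at most 3 counts in any library.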
